A study of Rattus norvegicus with 6 samples.

Results

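Myostatin is a secreted growth inhibitor of skeletal muscle and a member of the TGF-beta superfamily, to which the activins also belong. It binds a type II activin receptor, which recruits and phosphorylates a type I receptor, and the type I receptor in turn phosphorylates SMAD2 and SMAD3, which enter the nucleus with SMAD4. Follistatin and the related protein FSTL3 hold the ligand outside the cell, and SMAD7 blocks the signal inside it. Loss of myostatin gives enlarged muscles in mice, cattle and other mammals. The 10 genes described here are the ligand Mstn, the follistatin family genes Fst, Fstl1 and Fstl3, the receptor genes Acvr2a, Acvr2b and Acvr1b, and the SMAD genes Smad2, Smad3 and Smad7. They were picked by gene symbol out of 14506 named genes, all 10 were on the array, and each was read by 1 transcript cluster, the array's unit for a gene.

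RNA of gastrocnemius muscle was measured on 6 Affymetrix Rat Gene 1.0 ST arrays, 2 for each of 3 diets. All rats were male diet-induced obese Sprague-Dawley rats, 12 weeks old at the start, 20 weeks old at the end, and fed without restriction for 8 weeks on a diet high in fat and sucrose. Each diet held 4.6 kcal/g and took 10% of its energy from protein, which was casein with free leucine in the leucine diet (7.1% of energy from casein and 2.9% from leucine), skim milk powder in the dairy diet and casein alone in the casein diet, the control. Each diet was fed to 4 rats per the design text, and the labels do not say whether an array stands for 1 rat, so p-values measure the spread between these arrays, which may be technical. Values are log2 signals, so a difference of 1 is a doubling. They are read as differences of 1 gene between arrays, since probes of different genes differ in brightness.

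The tissue label was checked on marker genes. Fast-fibre markers, which define most of the gastrocnemius, had a median level at percentile 99.9 of all genes. Liver is named in the protocols for storage and extraction, and hepatocyte markers had a median level at percentile 51.8. They varied within diets: the log2 of their summed signal was 7.80 and 10.89 on the leucine arrays, 9.38 and 8.00 on the dairy arrays, and 10.30 and 12.41 on the casein arrays. Against casein 19 of 19 were lower with leucine and 19 of 19 with dairy, at medians of −1.23 and −1.78, or −0.39 (16 of 19 lower) and −0.78 (19 of 19 lower) without casein array 2. Their part in the values below was not tested. Casein array 2 stood apart, with a mean correlation of 0.974 with the other arrays against 0.985 to 0.988 for the rest. On that array the median marker, set against its own mean over the 6 arrays, stood at −2.79 for slow fibres, at 0.61 for macrophages and at 2.01 for hepatocytes. It is 1 of the 2 control arrays, so for each of the 10 genes the values against casein are given with and without it.

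Mstn (transcript cluster 10927805), the ligand, was lowest on both leucine arrays. Its log2 signal was 6.55 and 5.97 on the leucine arrays, 7.38 and 6.77 on the dairy arrays, and 7.32 and 8.08 on the casein arrays. The leucine arrays lay below all 4 others, while the dairy and casein arrays overlapped. Mean log2 signals (± SD, n = 2 arrays per diet) were 6.26 ± 0.41 for leucine, 7.07 ± 0.43 for dairy and 7.70 ± 0.54 for casein. The difference of leucine from casein was −1.44 ± 0.39 on the log2 scale (SE), which is 2.71-fold lower, with a 95% interval from −2.49 to −0.39. Its unadjusted p was 0.0181 by limma, at rank 630 of all genes, and its adjusted p of 0.414 did not pass the threshold of 0.05.

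The size of the Mstn difference depended on which casein and leucine arrays were used. Without casein array 2, the array with the highest Mstn signal, the log2 fold change for leucine against casein was −1.06 ± 0.43 with an unadjusted p of 0.0924 by limma. Without casein array 1 it was −1.82, without leucine array 2 −1.15 and without leucine array 1 −1.73. All of these are on the same side of 0 as the value from all 6 arrays. So are the values of −1.51, −1.34 and −1.40 from the 3 other scalings of the arrays that were tried. For dairy against casein Mstn stood at −0.63 ± 0.39, with a 95% interval from −1.67 to 0.42, at −0.25 without casein array 2 and at −1.01 without casein array 1. For leucine against dairy, a comparison that uses no casein array, it stood at −0.81 ± 0.39 with an interval from −1.86 to 0.24. It also moved with the arrays used, to −0.51 without dairy array 1, −1.12 without dairy array 2, −0.52 without leucine array 2 and −1.10 without leucine array 1. Over the 6 arrays Mstn ranged by 2.11 log2 units, more than 98.5% of all genes did.

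**Figure D1:**
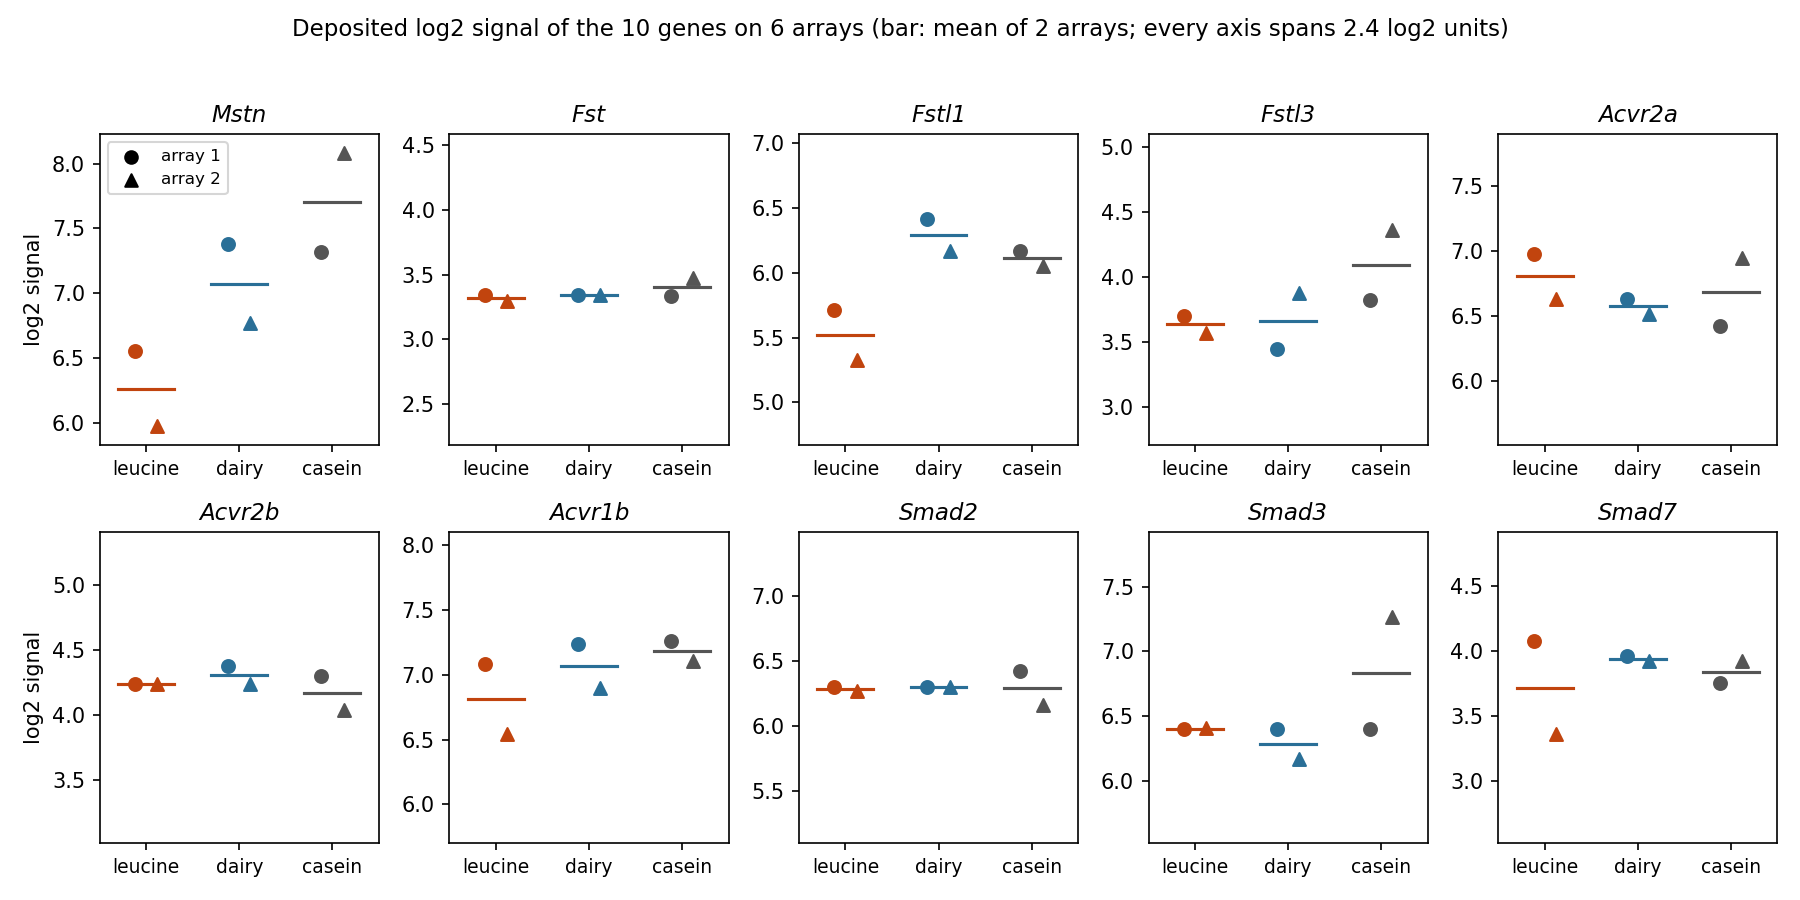
Deposited log2 signal of each gene (vertical axis) on the 2 arrays of each diet (horizontal axis), with circles for array 1, triangles for array 2 and a bar at their mean. Mstn and Fstl1 have both leucine arrays below all other arrays, and Fst and Smad2 hardly spread.

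Among the follistatin family, Fstl1 (10754218) was the gene that set leucine apart from both other diets. It encodes follistatin-like 1, a secreted glycoprotein made by fibroblasts and muscle. Its log2 signal was 5.71 and 5.32 on the leucine arrays, 6.42 and 6.17 on the dairy arrays, and 6.17 and 6.05 on the casein arrays. As for Mstn, the leucine arrays lay below all others, and the dairy and casein arrays overlapped. The difference of leucine from dairy was −0.78 ± 0.17 on the log2 scale (SE), which is 1.71-fold lower, with a 95% interval from −1.23 to −0.32 and an adjusted p of 0.606 by limma. Against casein it was −0.59 ± 0.17, or 1.51-fold lower, with an interval from −1.05 to −0.14 and an adjusted p of 0.433 by limma. The unadjusted p was 0.00839 against dairy and 0.0218 against casein by limma. Without casein array 2 the value against casein was −0.65, with an unadjusted p of 0.0717 by limma. Without leucine array 2 it was −0.40, with an unadjusted p of 0.0762 by limma. With 1 array left out at a time the value against dairy ran from −0.97 to −0.58. With arrays centred on the fast-fibre markers leucine stood at −0.53 against dairy and −0.55 against casein. The unadjusted p there were 0.0638 and 0.0527 by limma. After quantile normalization and with arrays centred on their median both stayed under 0.05. Dairy against casein stood at 0.18 ± 0.17, at 0.12 without casein array 2 and at −0.026 with arrays centred on the fast-fibre markers.

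Markers of fibroblasts and the extracellular matrix were also low on the leucine arrays. Of 18 measured markers 18 were lower with leucine than with dairy, the median difference being −0.90 on the log2 scale against 0 over all genes, and 16 were lower than with casein, with a median of −0.50. The log2 of their summed signal was 11.03 and 10.93 on the leucine arrays, 12.36 and 11.96 on the dairy arrays, and 11.92 on both casein arrays. Macrophage markers were lower with leucine than with dairy in 18 of 18 genes, and lower than with casein in 18 of 18, or in 11 of 18 without casein array 2. Their summed signal was 8.91 and 8.81 on the leucine arrays, 9.62 and 9.55 on the dairy arrays, and 9.07 and 10.3 on the casein arrays. Other lists were also mostly lower with leucine than with dairy: 10 of 10 adipocyte, 10 of 11 endothelial, 9 of 10 Schwann cell and 7 of 10 satellite cell markers. Higher with leucine were 18 of 19 hepatocyte and 11 of 14 slow-fibre markers. With arrays centred on the fast-fibre markers, 5 of 11 endothelial and 2 of 10 Schwann cell markers were lower. In that scaling 16 of 18 matrix, 15 of 18 macrophage, 7 of 10 adipocyte and 5 of 10 satellite cell markers were lower. No marker is at 0 on a scale of log2 signals. In bulk tissue fewer cells of a type and less RNA per cell cannot be told apart. The part of these cells in the values of Fstl1 and Mstn was not tested.

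Muscle fibre markers were compared as well. In rodents Mstn is known to be expressed more in fast glycolytic than in slow fibres. Fast-fibre markers were lower with leucine than with casein in 13 of 15 genes (10 of 15 after quantile normalization), the median difference being −0.11, or −0.28 with 14 of 15 lower without casein array 2. Set against dairy, 14 of 15 were lower with leucine, at a median of −0.27, or −0.07 after quantile normalization. Slow-fibre markers were higher with leucine than with casein in 14 of 14 genes with a median of 1.82, which was 0.06 with 8 of 14 higher when casein array 2 was left out. Mstn was highest on the array where slow-fibre markers were lowest. The part of fibre type in the Mstn values was not tested.

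**Figure D2:**
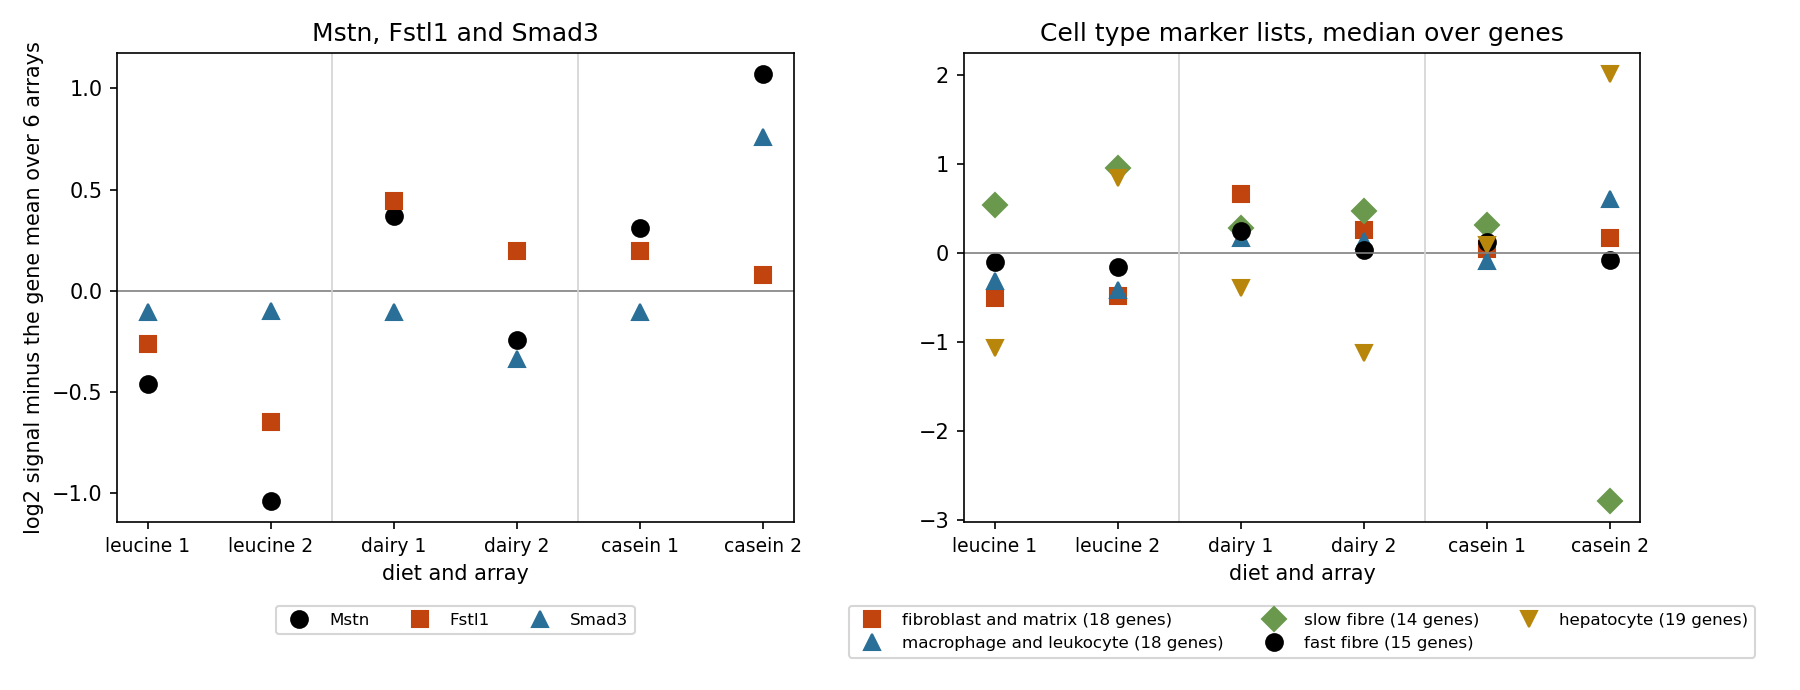
Log2 signal minus the gene's mean over the 6 arrays (vertical axis) on each array (horizontal axis), for Mstn, Fstl1 and Smad3 on the left and as the median over genes of 5 cell type marker lists on the right. Matrix markers and Fstl1 are below 0 on both leucine arrays, and casein array 2 has the highest Mstn and Smad3 and the lowest slow-fibre markers.

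Fstl3 (10900782), a secreted relative of follistatin that binds activin and myostatin, was also lower on both leucine arrays than on both casein arrays. Its log2 signal was 3.70 and 3.57 with leucine, 3.44 and 3.88 with dairy, and 3.82 and 4.36 with casein. The gap between the nearest leucine and casein arrays was small, and the dairy arrays lay on both sides of the leucine arrays. It stood at −0.46 ± 0.25 for leucine against casein, or −0.18 without casein array 2, and at −0.43 ± 0.25 for dairy against casein, or −0.16 without it. Fst (10821408), follistatin itself, had the narrowest range of the 10 genes, from 3.29 to 3.47 over the 6 arrays. That signal was below the median row on all 6 arrays, so little can be read from it. Its log2 fold changes were −0.09 ± 0.07 for leucine against casein, −0.07 ± 0.07 for dairy against casein and −0.02 ± 0.07 for leucine against dairy. The values against casein were −0.018 for leucine and 0.0017 for dairy without casein array 2.

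Acvr1b (10899367) encodes the type I activin receptor ALK4, which carries activin and myostatin signals to SMAD2 and SMAD3. Its log2 signal was 7.08 and 6.54 on the leucine arrays, 7.23 and 6.90 on the dairy arrays, and 7.26 and 7.11 on the casein arrays. The leucine arrays lay below both casein arrays, the higher of them by little. For leucine against casein it stood at −0.37 ± 0.23 (SE) with a 95% interval from −0.99 to 0.24, and −0.10 when leucine array 2 was left out. Dairy against casein stood at −0.12 ± 0.23. Without casein array 2 the values were −0.45 for leucine and −0.19 for dairy.

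For both type II receptor genes the arrays of all 3 diets overlapped. Acvr2a (10836072), which encodes a receptor for activins, had a log2 signal of 6.98 and 6.63 with leucine, 6.63 and 6.52 with dairy, and 6.43 and 6.95 with casein. The casein arrays enclosed both dairy arrays. Leucine against casein gave 0.12 ± 0.22, or 0.38 without casein array 2, and dairy against casein gave −0.11 ± 0.22, or 0.15 without it. Acvr2b (10914230), the main type II receptor of myostatin, had a signal of 4.235 on both leucine arrays, 4.38 and 4.235 on the dairy arrays, and 4.30 and 4.04 on the casein arrays. Leucine against casein gave 0.06 ± 0.11 with an interval from −0.24 to 0.37, and −0.06 without casein array 2. Dairy against casein gave 0.14 ± 0.11, and 0.0065 without that array.

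Smad2 and Smad3 encode the SMADs that carry the signal, and they gave different pictures. Smad2 (10802741) had a log2 signal of 6.30 and 6.27 with leucine, 6.30 and 6.30 with dairy, and 6.43 and 6.16 with casein. Its casein arrays enclosed all others, and the 95% interval for leucine against casein ran from −0.29 to 0.28. The values against casein were −0.0070 for leucine and 0.0066 for dairy, and −0.14 and −0.13 without casein array 2. Smad3 (10918169) had 6.40 and 6.41 with leucine, 6.40 and 6.17 with dairy, and 6.40 and 7.27 with casein. Only casein array 2 stood high, by 0.86 over the next array. The difference of leucine from casein was −0.43 ± 0.31 for Smad3, and 0.0040 without casein array 2. Dairy against casein gave −0.55 ± 0.31, and −0.11 without it.

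Smad7 (10802734), the inhibitory SMAD, is itself induced by TGF-beta signals. Its log2 signal was 4.07 and 3.36 with leucine, 3.96 and 3.92 with dairy, and 3.75 and 3.92 with casein. The leucine arrays were the highest and the lowest of the 6, so the diets could not be ordered. Leucine against casein gave −0.12 ± 0.26, with values of 0.24 without leucine array 2 and −0.48 without leucine array 1. Dairy against casein gave 0.10 ± 0.26. These were −0.036 for leucine and 0.19 for dairy without casein array 2.

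Exact ties limit the errors of several genes. In 5 of the 10 genes, Acvr2a, Acvr2b, Smad2, Smad3 and Smad7, the deposited value was the same to the last digit on 2 or 3 arrays, as it was for 60.8% of all genes. The SD of 0 for Acvr2b on the leucine arrays and for Smad2 on the dairy arrays is such a tie, and not a measure of biological spread.

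Across the 10 genes, leucine against casein gave 8 lower and 2 higher, where 50.4% of all genes were lower and 49% higher. The median log2 fold change was −0.25, against 0 over all genes. The leucine arrays lay below both casein arrays in 4 genes, Mstn, Fstl1, Fstl3 and Acvr1b, and above them in 0, where 15.6% of all genes lay below and 31.5% on either side. By limma 0 of 10 passed the threshold, as did 0% of all genes, and 2 had an unadjusted p under 0.05 in the lower direction, Mstn and Fstl1, where 4.85% of all genes did, and 9.61% in either direction. With the replicate number as a block Acvr1b was a further gene under 0.05, at an unadjusted p of 0.0474 by limma. The share of all genes under 0.05 with that block was not counted. Centring each array on its median or on the fast-fibre markers left 6 and 7 lower in place of 8. Without casein array 2 there were again 8 lower, where 49.4% of all genes were, the remaining casein array lay outside the leucine arrays in 7 genes, where 61.5% of all genes did so, and 1 gene, Smad2, at −0.14, had an unadjusted p of 0.0498 by limma. In that setting 13.3% of all genes were under 0.05 in either direction.

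Dairy against casein gave 6 of 10 genes lower, where 47% of all genes were lower and 51.1% higher, with a median log2 fold change of −0.09 against 0.0028 over all genes. In 0 of 10 genes did the dairy arrays lie apart from the casein arrays, where 23.2% of all genes did. By limma 0 of 10 passed the threshold, as did 0% of all genes, and 0 had an unadjusted p under 0.05, where 4.8% of all genes did. With arrays centred on the fast-fibre markers 10 of 10 were lower, a scaling that moved the median of all genes by −0.21. The 4 lowest were Mstn, Smad3, Fstl3 and Acvr1b, and the first 3 of these moved towards 0 without casein array 2. In that setting 5 of 10 were lower, where 50% of all genes were, 0 had an unadjusted p under 0.05, where 10.2% did, and in 5 the remaining casein array lay outside the dairy arrays, where 55% did.

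Leucine against dairy gave 8 of 10 genes lower, where 50% of all genes were lower and 49.1% higher, with a median of −0.05 against 0 over all genes. Mstn and Fstl1 had both leucine arrays below both dairy arrays, 2 genes of 10, where 14.9% of all genes lay below and 28.3% on either side. By limma 0 of 10 passed the threshold, as did 0% of all genes, and Fstl1 alone had an unadjusted p under 0.05 in the lower direction, where 3.45% of all genes did, and 5.7% in either direction. Many of these differences were small: with each array quantile-normalized or centred on its median 5 of 10 were lower, and with arrays centred on the fast-fibre markers 3 of 10, a scaling that moved the median of all genes by 0.25. A moderated F test for any difference among the 3 diets called 0 of 10 genes, and 2 had an unadjusted p under 0.05 by limma, Mstn at 0.0452 and Fstl1 at 0.0185, where 7.25% of all genes did. The comparisons of leucine and of dairy with casein share the casein arrays, and their values stand side by side for that reason.

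**Figure D3:**
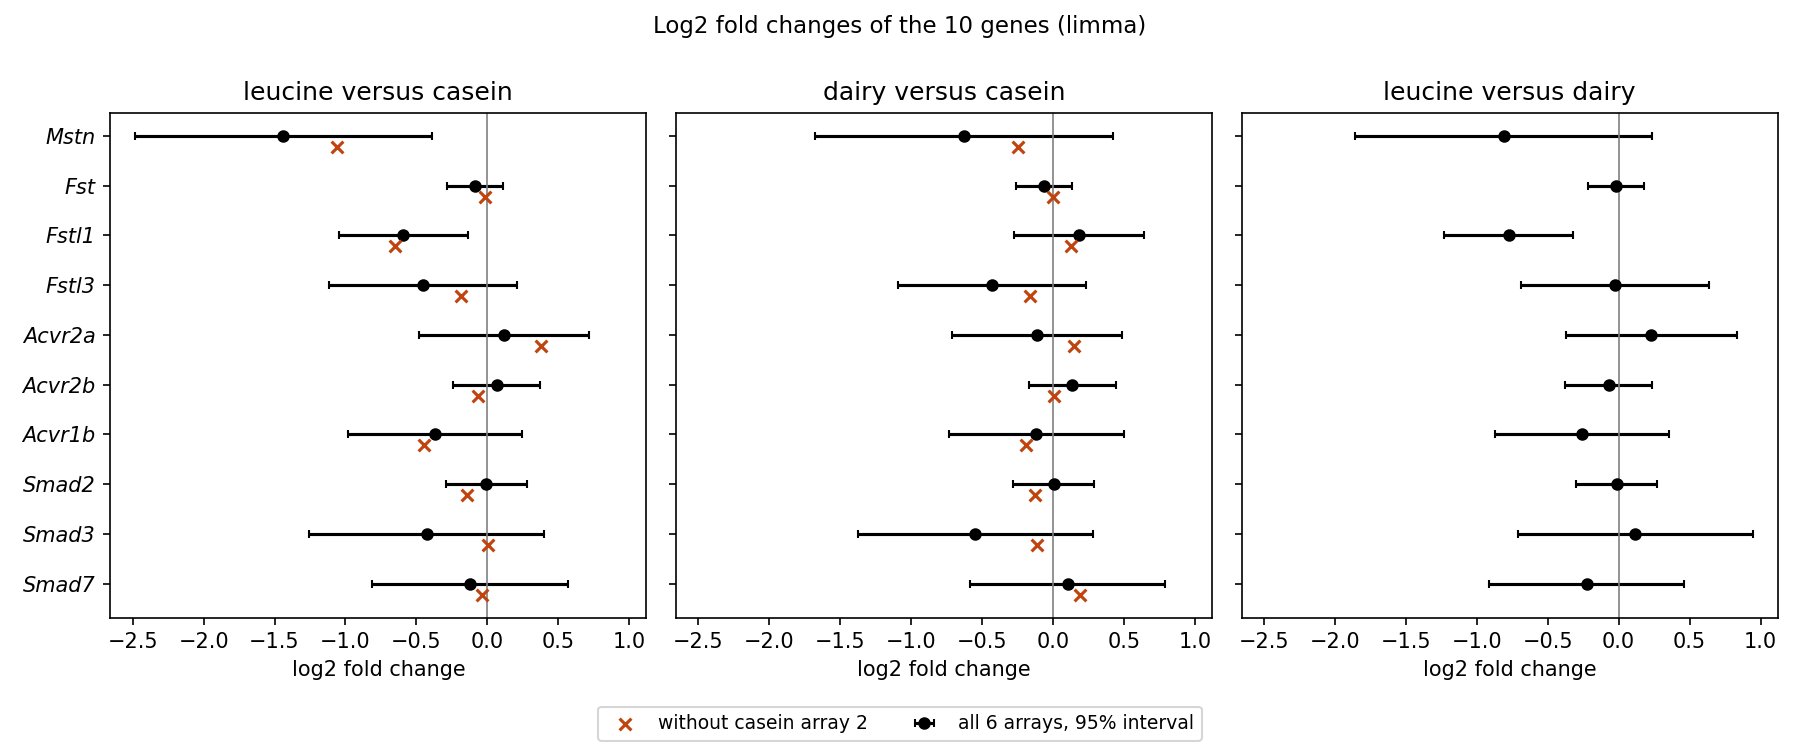
Log2 fold change (horizontal axis) of the 10 genes in each comparison, with dots and bars for the limma estimate and its 95% interval from all 6 arrays and crosses for the estimate without casein array 2. The intervals of Mstn and Fstl1 for leucine against casein and of Fstl1 for leucine against dairy do not reach 0, and Smad3 moves to 0.0040 for leucine against casein without that array.

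Promoter sequences were looked up for the 4 genes whose leucine arrays lay below the casein arrays, because SMAD proteins bind DNA and the pathway regulates some of its own genes. The RefSeq promoter table (GRCr8 build, 250 bases before to 50 after the start) held 8 of the 10 genes, among them Fstl1, Fstl3 and Acvr1b, and not Mstn and Fst. The capitals mark the SMAD box CAGAC, or GTCTG on the other strand, and the E-box CANNTG, which reads the same on both strands. Myogenic factors such as MyoD bind some E-boxes, and the middle letters were not told apart here. The Fstl1 promoter lies at chr11:76454004-76454303 on the minus strand, that of Fstl3 at chr7:10579795-10580094 on the minus strand and that of Acvr1b at chr7:134164751-134165050 on the plus strand.
Fstl1: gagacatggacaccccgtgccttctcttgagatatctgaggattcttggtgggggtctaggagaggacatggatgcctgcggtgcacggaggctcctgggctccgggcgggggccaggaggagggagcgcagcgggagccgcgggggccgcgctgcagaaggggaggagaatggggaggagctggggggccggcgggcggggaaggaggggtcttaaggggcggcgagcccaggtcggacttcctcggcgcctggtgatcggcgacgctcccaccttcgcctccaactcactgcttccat
Fstl3: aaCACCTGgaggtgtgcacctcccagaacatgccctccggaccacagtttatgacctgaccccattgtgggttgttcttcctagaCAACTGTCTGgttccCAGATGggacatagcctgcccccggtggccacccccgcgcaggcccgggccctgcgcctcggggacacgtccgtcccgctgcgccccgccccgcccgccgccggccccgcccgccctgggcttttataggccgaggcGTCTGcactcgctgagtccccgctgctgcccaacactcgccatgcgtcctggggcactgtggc
Acvr1b: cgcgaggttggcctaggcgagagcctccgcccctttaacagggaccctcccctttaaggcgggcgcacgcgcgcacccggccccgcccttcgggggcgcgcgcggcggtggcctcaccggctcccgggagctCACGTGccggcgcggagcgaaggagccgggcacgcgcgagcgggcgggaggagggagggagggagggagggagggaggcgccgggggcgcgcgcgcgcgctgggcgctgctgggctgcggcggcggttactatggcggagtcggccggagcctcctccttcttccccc
The Fstl3 promoter held 2 SMAD boxes and 3 E-boxes, and 1 of the SMAD boxes overlapped an E-box. Acvr1b held 1 E-box and no SMAD box, and these letters are not in the Fstl1 window. Among the 8 genes, a SMAD box was found in 1 and an E-box in 3, while 50.1% of all 33469 promoters in the table held a SMAD box and 72.1% an E-box. A match is a description of the letters and not of binding.

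The other genes of the pathway were taken from lists of ligands, proteases, antagonists, receptors, SMADs and responsive genes, of which 66 were measured. By limma 0 of 66 passed the threshold in any comparison. For leucine against casein 46 were lower and 20 higher, with a median log2 fold change of −0.14 against 0 over all genes. Leaving out casein array 2 gave 40 lower and 26 higher, with a median of −0.07. An unadjusted p under 0.05 was found for 8 lower and 3 higher genes, where 4.85% and 4.76% of all genes had one. For dairy against casein 29 were lower and 36 higher, with 3 lower and 4 higher genes under 0.05, where 2.31% and 2.49% of all genes were. For leucine against dairy 43 were lower and 23 higher, with 6 lower and 0 higher genes under 0.05, where 3.45% and 2.25% of all genes were. The splits moved with the scaling: for leucine against casein 38 of 66 were lower with arrays centred on their median, which moved the median of all genes by 0.10, and with arrays centred on the fast-fibre markers 47 of 66 were lower for dairy against casein and 17 of 66 for leucine against dairy.

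Among ligands and the proteases that cut their precursors, 14 of 17 ligands were lower with leucine than with casein, with a median of −0.13. Of all genes 50.4% were lower. Without casein array 2 it was 13 of 17 ligands, with a median of −0.09. With arrays centred on their median it was 11 of 17, with a median of −0.03. For dairy against casein 11 of 17 were lower in the main model. Many of these rows were dim, and 6 of the 17 ligands lay above the median gene. Inhbc, the beta C subunit of activins, had the smallest p of them and stood at −0.43 ± 0.09 with leucine and −0.51 ± 0.09 with dairy, each against casein. Its signal lay between 2.15 and 2.73 on all arrays, near the dim end of the scale. The ligands Gdf6 and Bmp2, which were higher with leucine than with dairy by 0.14 ± 0.09 and 0.15 ± 0.11, did not pass at an unadjusted p of 0.05. Bmp2 read 2.9012 on leucine array 2, dairy array 2 and both casein arrays, 2.93 on leucine array 1 and 2.63 on dairy array 1. Its value thus rests mostly on dairy array 1. Pcsk6, a proprotein convertase of secreted growth factors, had 4.47 and 4.50 on the leucine arrays, 5.14 and 5.03 on the dairy arrays, and 5.15 and 4.99 on the casein arrays. Its leucine arrays lay below all others, at −0.59 ± 0.09 against casein and −0.60 ± 0.09 against dairy. Furin, a convertase that cuts the precursors of TGF-beta family ligands, was higher on all leucine and dairy arrays than on casein, at 0.26 ± 0.07 for each diet against casein. None of these passed after adjustment, with an adjusted p by limma of 0.903 for Gdf6 and Bmp2 and between 0.353 and 0.833 for the others.

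Among antagonists and carriers 10 of 12 were lower with leucine than with casein (9 of 12 without casein array 2) and 10 of 12 lower than with dairy, where centring on the fast-fibre markers left 5 of 12 lower. Dcn, the matrix proteoglycan decorin, which binds TGF-beta and myostatin, had 8.87 and 8.57 on the leucine arrays, 10.4 and 9.79 on the dairy arrays, and 9.75 and 9.84 on the casein arrays. It stood at −1.38 ± 0.24 for leucine against dairy, with an adjusted p of 0.514 by limma. Dcn is also 1 of the 18 matrix markers above. Fmod, the matrix proteoglycan fibromodulin, which also binds TGF-beta, lay farthest from 0 of the 66 genes and was chosen after its values were seen. It stood at −3.27 ± 0.90 for leucine against casein and −2.22 ± 0.90 for leucine against dairy, with an adjusted p of 0.419 and 0.903 by limma.

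Among the other receptors 5 of 10 were lower with leucine than with casein, at a median of 0.06, or −0.01 without casein array 2. Bmpr2, the type II receptor of bone morphogenetic proteins, stood at 0.47 ± 0.12 for leucine against casein and at 0.32 ± 0.12 for leucine against dairy. Tgfbr3, the co-receptor betaglycan, stood at −0.89 ± 0.20 for leucine against dairy. Acvr1c, which encodes the type I receptor ALK7, stood at −0.21 ± 0.06 for leucine and −0.18 ± 0.06 for dairy, each against casein. Its signal lay between 2.42 and 2.67 on all arrays, near the dim end of the scale. Leucine array 1 and both dairy arrays read 2.4829 for Acvr1c, and such a tie makes the errors smaller. The directions thus differed between receptors. For leucine against casein the adjusted p by limma was 0.413 for Bmpr2 and 0.429 for Acvr1c. It lay between 0.606 and 0.903 for the other 3 values.

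Among the other SMADs and their regulators 8 of 13 were higher with leucine than with casein (10 of 13 without casein array 2) and 9 of 13 higher with dairy than with casein, or 5 of 13 with arrays centred on the fast-fibre markers. Smurf2, a ubiquitin ligase that degrades SMADs and receptors, had 6.26 and 6.43 on the leucine arrays, 6.26 and 6.26 on the dairy arrays, and 6.03 and 5.99 on the casein arrays. It stood at 0.34 ± 0.08 for leucine and 0.25 ± 0.08 for dairy, each against casein. Leucine array 1 and both dairy arrays read 6.2604 for Smurf2, and such a tie makes the errors smaller. Smad4, the partner of SMAD2 and SMAD3, stood at 0.25 ± 0.07 for dairy against casein. Without casein array 2 Smurf2 stood at 0.32 for leucine and 0.23 for dairy, and Smad4 at 0.30 for dairy.

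Of 9 genes listed as SMAD-responsive, 8 were lower with leucine than with casein, with a median of −0.26, where 50.4% of all genes were lower. Against dairy 9 of 9 were lower with leucine, with a median of −0.16, where 50% of all genes were lower. With arrays centred on the fast-fibre markers 3 of 9 were lower than with dairy. The list was not split by the SMADs that a gene responds to, so it does not measure SMAD2 and SMAD3 signals alone. Id4, an inhibitor of basic helix-loop-helix factors, had a log2 signal of 3.503 and 3.525 on the leucine arrays, 3.67 on both dairy arrays, and 3.94 and 4.03 on the casein arrays. The 3 diets did not overlap for Id4, at −0.47 ± 0.06 for leucine and −0.32 ± 0.06 for dairy against casein, with adjusted p of 0.353 and 0.833 by limma. Both dairy arrays read 3.6696, and such a tie makes the errors smaller. Its mean signal lay below the median gene. The share of all genes in which the 3 diets lay apart was not counted.

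**Figure D4:**
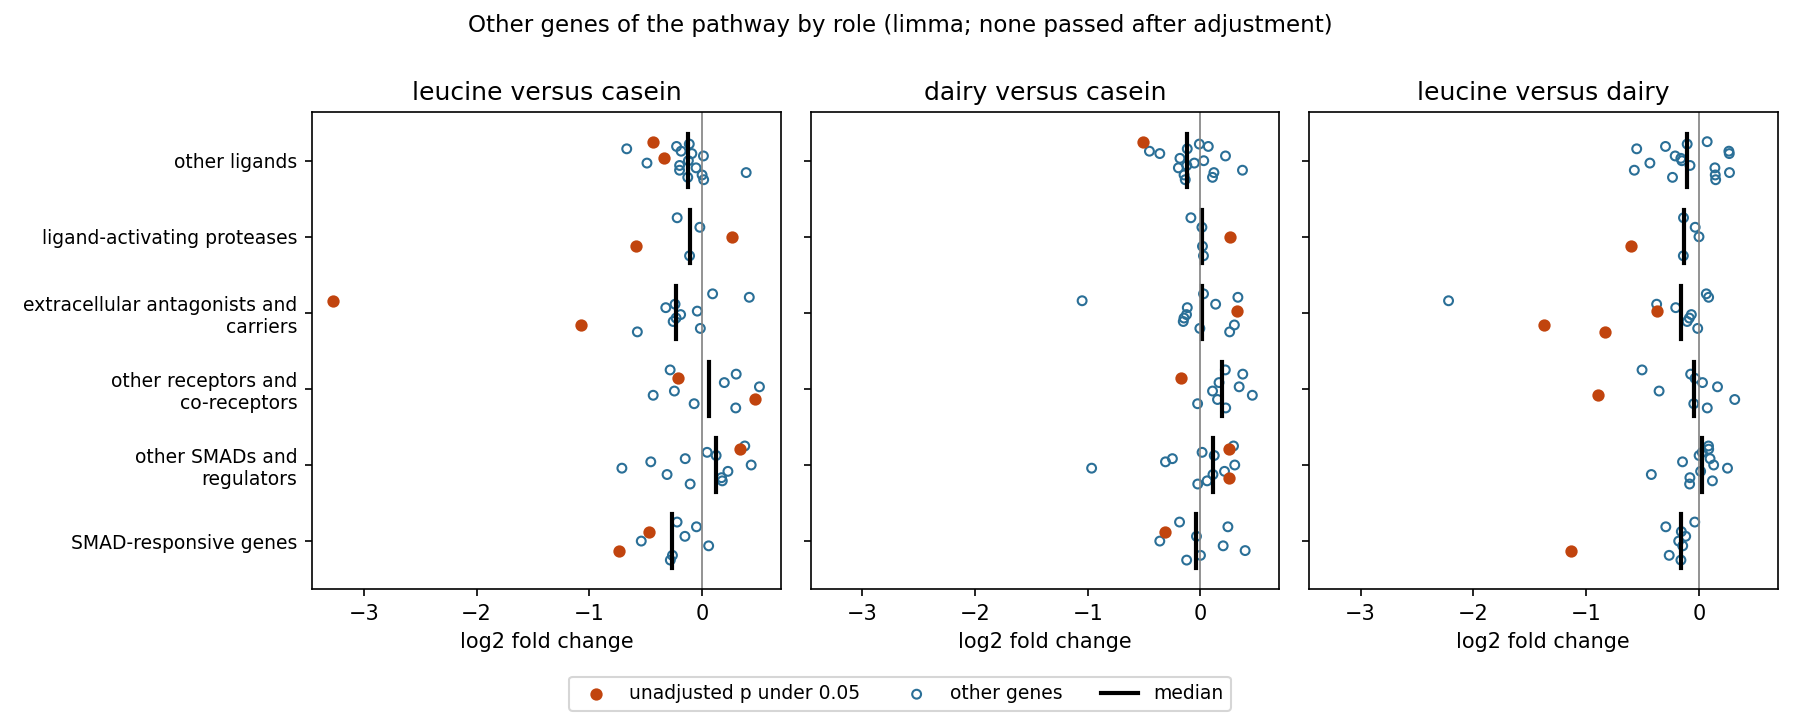
Log2 fold change (horizontal axis) of the 66 other pathway genes, grouped by role (vertical axis) in the 3 comparisons, with filled points for an unadjusted p under 0.05, open points for the rest and a bar at the median of each group. Most ligands and SMAD-responsive genes lie left of 0 for leucine against casein, and the median of the other SMADs and regulators lies at 0.12.

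The genes whose pattern over the 6 arrays lay nearest to that of Mstn were sought among 7252 genes brighter than the median gene, by the root mean square distance between values centred on each gene's mean. The nearest 5 were Sned1 at 0.229 log2 units, Cd74 at 0.246, Sema6b at 0.261, Rgs16 at 0.262 and Socs2 at 0.266, while Mstn itself spread by 0.674 around its mean. All 5 had both leucine arrays below the 4 others and their highest value on casein array 2, an order that picking them by nearness to Mstn favours. Cd74 is also 1 of the 18 macrophage markers above. For Fstl1 the nearest were Fyn at 0.0625, Ddr2 at 0.0941, Eef2k at 0.0983, Fgfr1 at 0.0996 and Axl at 0.101, while Fstl1 spread by 0.358. These too had both leucine arrays below the 4 others, which again comes with how they were picked.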

How the data were processed

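The authors deposited 1 log2 signal for each transcript cluster and array, for which the submitters' processing notes name Affymetrix Expression Console. Its version, background correction, normalization and summarization, and the genome build, are not given in the sources used here, so probe background and precision could not be checked beyond the number of arrays. Of 29214 rows, 15310 had 1 gene in the platform annotation. Symbols were updated by gene identifier for 15279 and by accession for 6, and the row with the highest mean was kept per symbol, leaving 14506 genes with no filter on dim genes. Diet was the single term of a model of all 6 arrays in limma 3.58.1 in R 4.3.3 (3 residual degrees of freedom), with Benjamini-Hochberg adjustment over all genes and a threshold of 0.05. Intervals of 95% use the moderated standard error. The procedure was run on simulated data to check the bias of its estimates and its false calls. How many true changes it would miss is not given here. All 10 members are named. Of the other pathway genes, the 3 with the smallest p per direction and comparison are named, and for Mstn and Fstl1 the 5 nearest genes. The members and lists were chosen with earlier results of these data known. Differences between arrays 1 and 2 were correlated across genes. The values were 0.179 between leucine and casein, 0.0865 between dairy and casein and 0.0536 between leucine and dairy. The labels do not say what the array numbers share, so arrays were not treated as pairs in the main model. Alternatives were other scalings, a filter on dim genes, another row per symbol, an intensity trend, a replicate block, fits of 2 diets and leaving out each array.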

Additional observations from a re-analysis of the deposited data

How the results depend on the processing

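In none of the alternatives did any of the 10 genes pass the adjusted threshold in any comparison by limma, and the lowest adjusted p of a member was 0.133. The replicate block left every log2 fold change as it was and the count at 0 of 10 past the threshold, with a lowest adjusted p of 0.402. Under the block the unadjusted p of Acvr1b for leucine against casein was 0.0474, against 0.172 without it. Differences between arrays 1 and 2 of the diets correlated at 0.0536 to 0.179. This does not settle whether arrays with the same number shared a day, a batch or a litter. The fold changes of Mstn kept their sign in all 3 comparisons under every scaling and whichever array was left out, as did those of Fstl1 against casein and against dairy for leucine. Of the 30 log2 fold changes, 11 never changed sign under the alternatives. The reversed values follow, and the cause was not tested. With arrays centred on the fast-fibre markers, Smad2 stood at 0.032 for leucine against casein. For dairy against casein that scaling gave Fstl1 at −0.026, Acvr2b at −0.072, Smad2 at −0.20 and Smad7 at −0.10. For leucine against dairy it gave Fst at 0.23, Fstl3 at 0.22, Acvr2b at 0.18, Smad2 at 0.23 and Smad7 at 0.021. With arrays centred on their median, Fst stood at 0.015 and Smad2 at 0.094 for leucine against casein, and Fst at 0.046, Fstl3 at 0.041 and Smad2 at 0.052 for leucine against dairy. After quantile normalization Smad2 stood at −0.11 for dairy against casein, and Fst at 0.0018, Fstl3 at 0.0079 and Smad2 at 0.048 for leucine against dairy.

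With 1 array left out at a time, the ranges for leucine against casein were −0.14 to 0.38 for Acvr2a, −0.065 to 0.19 for Acvr2b, −0.14 to 0.13 for Smad2, −0.86 to 0.0040 for Smad3 and −0.48 to 0.24 for Smad7. For dairy against casein they were −0.13 to 0.0017 for Fst, −0.37 to 0.15 for Acvr2a, −0.28 to 0.051 for Acvr1b and −0.13 to 0.14 for Smad2. For leucine against dairy they were −0.045 to 0.0050 for Fst, −0.24 to 0.19 for Fstl3, −0.53 to 0.015 for Acvr1b and −0.58 to 0.13 for Smad7. Where a left-out array leaves 1 array of a diet, that array is assumed to vary like the other diets. An alternative chosen after seeing the data, the counts without casein array 2, gave 1 gene with an unadjusted p under 0.05 for leucine against casein in place of 2. It gave 0 in place of 0 for dairy against casein. The lone casein array lay outside the leucine arrays in 7 genes in place of 4, where 61.5% of all genes did, and outside the dairy arrays in 5 in place of 0, where 55% did. Brightness over background was not analysed here, and Fst, Fstl3 and Smad7 lay below the median gene. The F test was not run for fits of 2 diets, and the filter on dim genes leaves no value for those 3 genes.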
